A study of Homo sapiens with 17 samples.

Results

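Genes known as targets of the progesterone receptor (PR) and the glucocorticoid receptor (GR) were followed across cultures of Ishikawa cells, an epithelial line from a human endometrial adenocarcinoma used in place of normal endometrial epithelium. The set was FKBP5, TSC22D3, ZBTB16, SGK1, KLF9, KLF15, ERRFI1, NDRG1, CEBPD and HSD11B2. Each was chosen for this known role, with no measured value in the rule, although earlier results of these data were known at the choice. Together they are 10 of the 60662 genes in the count table. RNA was sequenced from 11 cultures whose labels give a group, all after 24 h in medium with 10% charcoal-stripped serum, a serum from which most steroid hormone has been removed. The 3 controls had medium alone. The 3 vehicle controls received a vehicle named in their titles as Nap with ethanol (EtOH), the 2 Nap only cultures received the vehicle with Nap, and the 3 progesterone (P4) cultures received Nap with P4. The labels do not define Nap. The sequenced P4 cultures are described as having 10 μg/ml, whereas the protocol in the labels lists P4 at 0.1 and 1.0 mg/ml, so the unit of the dose is uncertain. Ethanol is named only for the vehicle controls, which the paper uses as its reference for P4. Whether the P4 cultures also held ethanol is not stated. If they did, P4 and ethanol cannot be told apart against Nap only cultures or controls. If they did not, the same holds against vehicle controls. All cultures are of 1 tumour-derived line, so p-values measure the spread between cultures and not between people. A further 6 libraries carry a title that contradicts the name of their column in the table, PSAT1 against PSAT1_P4, and entered no comparison.

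PR and GR are steroid receptors that, once bound by hormone, enter or stay in the nucleus and bind DNA as dimers. Both recognise much the same element, an inverted repeat of a hexamer, so many genes respond to progestins in cells with PR and to glucocorticoids in cells with GR. In the endometrium P4, made by the corpus luteum, acts mainly through PR and opposes oestrogen, and several of these genes are rapid direct targets in that response.

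Library totals ran from 4999521 counts, in vehicle control replicate 1, to 19704493, and the mitochondrial ribosomal RNA MT-RNR2 took between 20.2% and 27.1% of the counts of each library. Replicate libraries of each group differed by more than counting error, with a chi-square per degree of freedom of 1.48 to 18.3, so each was counted as 1 sample. Levels are given as CPM, counts relative to the size of each library after scaling, and a count of 3, taken as the limit of detection, stood at 0.600 CPM in the smallest library and at 0.152 CPM in the largest. That limit covers counting error only. All 7 epithelial marker genes were detected, with summed levels of 1179 to 1703 CPM in the 11 cultures. Leukocyte markers summed to at most 1.85 CPM and endothelial markers to at most 1.76 CPM, with CD3E, NKG7, CDH5 and PECAM1 at 3 counts or fewer in every library.

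The promoters below are shown for the 3 genes that rose and have a single start in the table, and for FKBP5, which has a pair of starts, a far one upstream of a near one, and is the only one of the 10 genes called higher in vehicle controls than in controls. The table of human promoters from RefSeq (GRCh38.p14) held 12 starts for 6 of the 10 genes, and ZBTB16, NDRG1, CEBPD and HSD11B2 were not matched. All sequences read 5′ to 3′ on the minus strand, where these genes lie, and end at the base before the start. Capitals mark GC boxes, the hexamer GGGCGG or its complement CCGCCC, bound by factors of the SP and KLF families, to which KLF9 and KLF15 belong. The GC box was added to the search after the levels had been seen. KLF15 is taken from chr3:126357409-126357658, ERRFI1 from chr1:8026310-8026559, KLF9 from chr9:70414658-70414907, the far start of FKBP5 from chr6:35728584-35728833 and its near start from chr6:35688916-35689165.
KLF15: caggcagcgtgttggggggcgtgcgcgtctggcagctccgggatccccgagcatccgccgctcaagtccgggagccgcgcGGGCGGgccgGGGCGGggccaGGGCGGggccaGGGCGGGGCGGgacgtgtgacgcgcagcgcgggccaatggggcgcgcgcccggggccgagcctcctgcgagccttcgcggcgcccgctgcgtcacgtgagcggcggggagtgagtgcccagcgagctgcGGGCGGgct
ERRFI1: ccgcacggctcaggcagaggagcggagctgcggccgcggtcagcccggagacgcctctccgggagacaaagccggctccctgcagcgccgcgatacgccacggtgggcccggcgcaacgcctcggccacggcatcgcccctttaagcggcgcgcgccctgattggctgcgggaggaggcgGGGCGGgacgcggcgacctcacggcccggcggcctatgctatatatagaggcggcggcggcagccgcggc
KLF9: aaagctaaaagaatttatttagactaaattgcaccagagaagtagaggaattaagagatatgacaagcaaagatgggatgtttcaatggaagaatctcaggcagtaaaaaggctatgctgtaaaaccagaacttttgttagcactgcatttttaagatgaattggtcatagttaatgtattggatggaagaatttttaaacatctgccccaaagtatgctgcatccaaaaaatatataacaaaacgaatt
FKBP5 far start: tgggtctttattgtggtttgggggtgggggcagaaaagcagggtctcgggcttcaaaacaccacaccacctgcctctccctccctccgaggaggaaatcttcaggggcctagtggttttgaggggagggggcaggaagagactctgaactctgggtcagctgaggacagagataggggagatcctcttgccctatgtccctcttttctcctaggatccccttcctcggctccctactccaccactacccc
FKBP5 near start: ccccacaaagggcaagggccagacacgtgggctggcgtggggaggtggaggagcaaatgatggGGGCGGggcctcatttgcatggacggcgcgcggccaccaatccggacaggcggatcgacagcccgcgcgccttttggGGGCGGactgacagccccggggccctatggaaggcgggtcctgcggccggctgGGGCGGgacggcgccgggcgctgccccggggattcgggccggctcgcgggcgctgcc

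KLF15 had 6 GC boxes in these 250 bases, the near start of FKBP5 had 3 and ERRFI1 had 1, while KLF9 and the far start of FKBP5 had 0. A GC box stood upstream of 7 of the 12 starts, beside 42.6% of all 35116 promoters, and 2.22% of all promoters had 6 or more. These 7 starts belong to 5 of the 6 genes. That count is per gene and cannot be set beside the share of promoters, because a gene can have several starts. The base composition differed as well, with 80.4% G or C upstream of KLF15 and 32.4% upstream of KLF9, against a median of 58% over all promoters. The full receptor element, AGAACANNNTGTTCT, was searched on both strands and was found upstream of none of the 12 starts and of 0.00285% of all promoters. Its single hexamer, AGAACA or TGTTCT, was in none of the 12 upstream windows, against 12.4% of all promoters. In the table's whole window, which adds the first 50 transcribed bases, it was found at 2 starts, the far start of FKBP5 and a start of SGK1, against 14.8% of all promoters. A match is a run of letters and not a bound site, and regions farther away were not searched.

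In P4 cultures 7 of the 10 target genes were higher than in vehicle controls and 1 was lower. The genes that rose were KLF15, NDRG1, ERRFI1, TSC22D3, CEBPD, KLF9 and FKBP5, by 1.19-fold to 10.4-fold, and HSD11B2 fell. SGK1 did not pass the test, and ZBTB16 had no counts and was not tested. The comparison asks which transcripts of endometrial epithelial cells respond to P4, and a gene was called where its edgeR quasi-likelihood p, adjusted by the Benjamini-Hochberg method over all 16540 genes tested, was under 0.05. Much of the transcriptome differed between these groups, with 53.0% of all genes tested called, 26.6% higher and 26.5% lower, so single calls are common. The 7 of 9 tested target genes called higher stand beside that 26.6%. The set was chosen with earlier results of these data known, so that contrast is a description and not a test. The median log2 fold change was 1.29 over the 9 tested genes and -0.01 over all genes, and 7 of the 9 lay beyond 1 log2 unit in either direction, where the bulk of all genes, from percentile 5 to percentile 95, lay between -1.19 and 1.04.

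**Figure D1:**
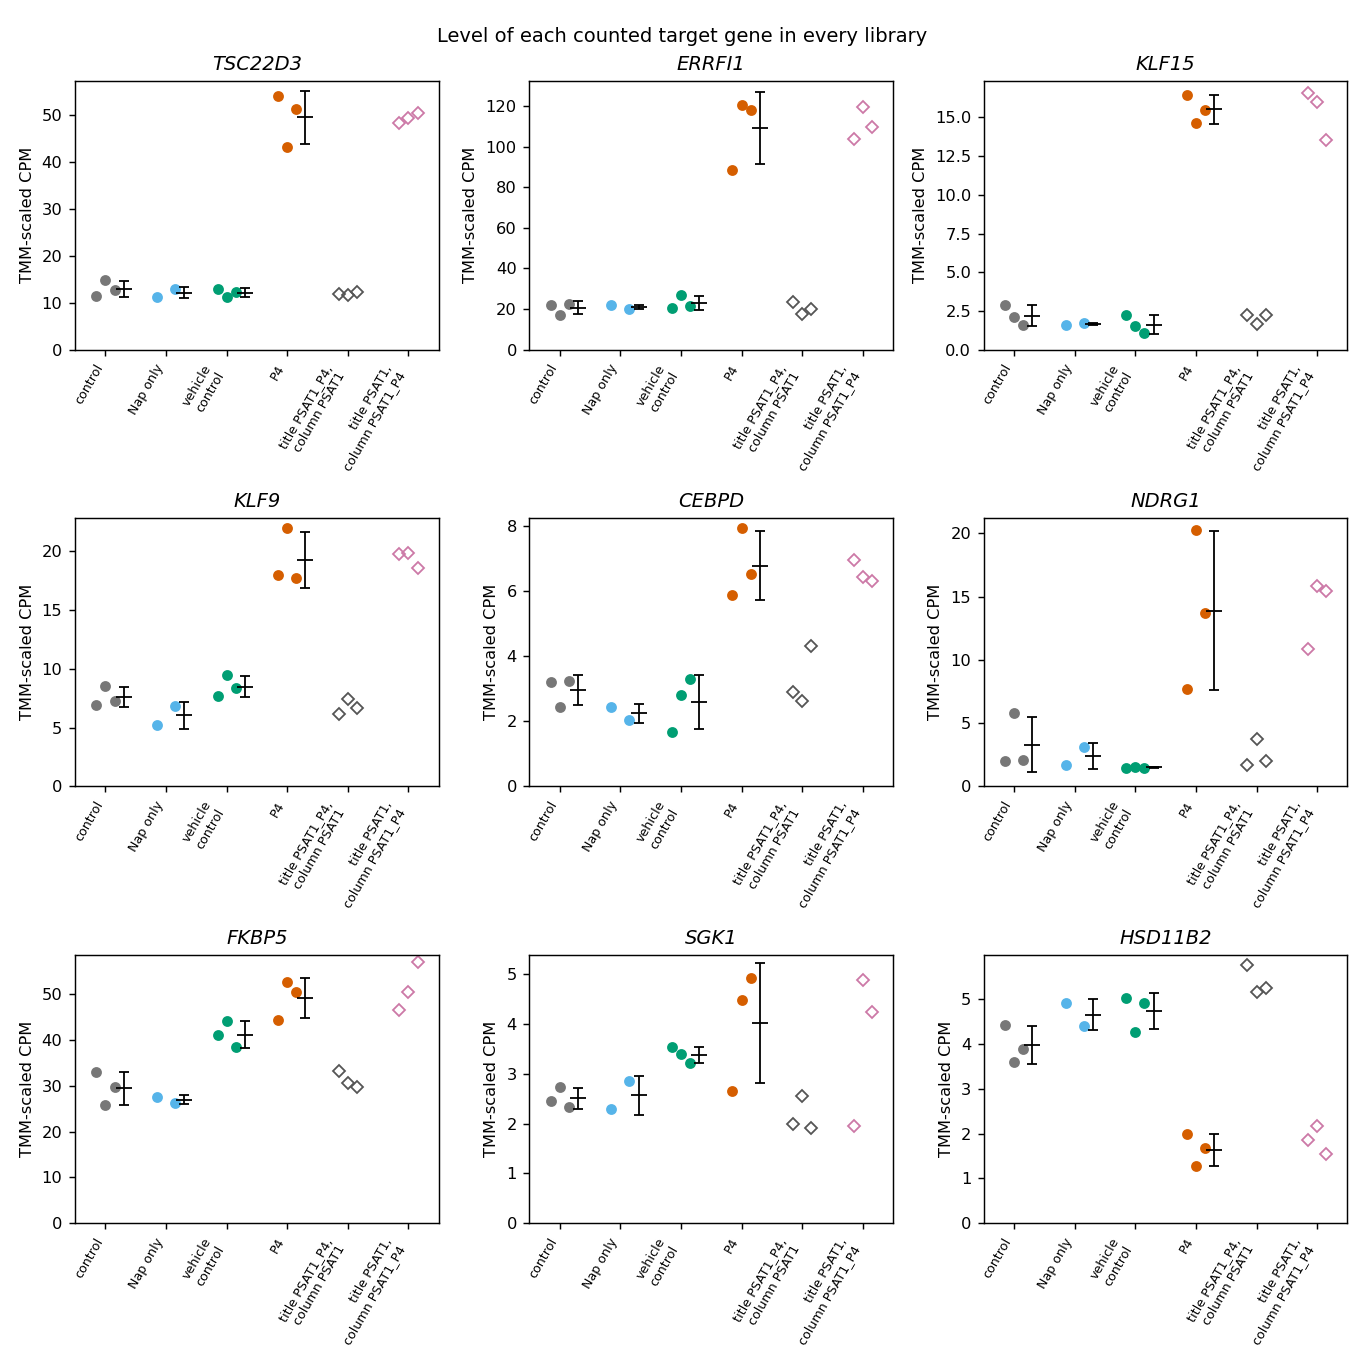
Level of each target gene that was counted, in TMM-scaled CPM on the vertical axis, for every library (filled points: the 4 labelled groups; open diamonds: the 6 libraries with contradictory labels). Bars give the mean and SD of each labelled group (n = 3, and n = 2 for Nap only). The 3 P4 libraries of ERRFI1 lie between 88.7 and 121 CPM, far above the other labelled libraries, and those of HSD11B2 lie below them.

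TSC22D3 encodes GILZ, a leucine zipper protein that restrains inflammatory signalling and is among the best known glucocorticoid targets. The gene (ENSG00000157514.16) lies on the minus strand of chromosome X from 107713221 to 107777342 (GRCh38). Its level was 54.1, 43.3 and 51.3 CPM in the 3 P4 cultures and 13.0, 11.2 and 12.2 CPM in the vehicle controls. Controls stood at 11.4, 14.9 and 12.7 CPM and Nap only cultures at 11.3 and 13.0 CPM. Every P4 culture was thus above every other labelled culture, and the 3 groups without P4 overlapped. The rise over vehicle controls was 4.11-fold, a log2 fold change of 2.04 with a standard error of 0.11 (edgeR's adjusted p = 5.18e-08). A 71-base stretch of its exons is shared with NCBP2L on the other strand, a gene with at most 1 count per library.

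KLF15 and KLF9 are zinc finger transcription factors, the first known for the control of amino acid and glucose metabolism downstream of GR and the second as a partner of PR in the endometrial epithelium. KLF15 (ENSG00000163884.4, chromosome 3 from 126342635 to 126357442, minus strand) was at 16.5, 14.6 and 15.5 CPM with P4. In vehicle controls it was at 2.24, 1.55 and 1.05 CPM, in controls at 2.90, 2.11 and 1.57 CPM and in Nap only cultures at 1.58 and 1.70 CPM. The P4 cultures were close to each other and well clear of the rest, while the vehicle control values rested on only 12 to 21 reads each. At 3.38 on the log2 scale (standard error 0.20, edgeR's adjusted p = 9.18e-08), or 10.4-fold, KLF15 had the largest fold of the 10 genes, a fold that lay at percentile 99.8 of all genes tested. KLF9 (ENSG00000119138.4, chromosome 9 from 70384597 to 70414624, minus strand) stood at 18.0, 22.0 and 17.7 CPM in P4 cultures. Its vehicle controls had 7.64, 9.44 and 8.38 CPM, its controls 6.94, 8.55 and 7.27 CPM and the Nap only cultures 5.22 and 6.85 CPM. KLF9 was 2.22-fold higher with P4 than in vehicle controls, a log2 fold change of 1.15 (standard error 0.13, edgeR's adjusted p = 1.90e-05), again with no overlap.

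CEBPD, a leucine zipper transcription factor of the C/EBP family induced early by glucocorticoids and cytokines, was a low gene in these cells. It is a gene of a single exon (ENSG00000221869.4) on the minus strand of chromosome 8 from 47736909 to 47739086. P4 cultures had 5.87, 7.94 and 6.53 CPM, and vehicle controls 1.68, 2.80 and 3.30 CPM, the lowest of these resting on 9 reads. The controls, at 3.22, 2.43 and 3.22 CPM, and the Nap only cultures, at 2.45 and 2.04 CPM, lay in the range of the vehicle controls and below every P4 culture. The rise was 2.44-fold (log2 fold change 1.29, standard error 0.22, edgeR's adjusted p = 3.43e-04). ZBTB16 (ENSG00000109906.13, chromosome 11 from 114059593 to 114250676, plus strand) encodes PLZF, a zinc finger repressor that P4 and glucocorticoids strongly induce in endometrial stromal cells. It had 0 counts in all 17 libraries. Before scaling, this allows a level of up to 0.600 CPM in vehicle control replicate 1 and up to 0.278 CPM in the shallowest P4 library.

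ERRFI1 encodes MIG6, an inhibitor that binds the kinase domain of the epidermal growth factor receptor, and is a PR target in the uterus. The gene (ENSG00000116285.13) lies on the minus strand of chromosome 1 from 8004404 to 8026308. Its level was 88.7, 121 and 118 CPM in P4 cultures, against 20.5, 26.9 and 21.3 CPM in vehicle controls. It was at 22.2, 17.1 and 22.7 CPM in controls and at 21.8 and 20.2 CPM in Nap only cultures. P4 replicate 1 was the lowest of its group and was still more than 3-fold above every culture without P4. The log2 fold change was 2.23 (standard error 0.13, edgeR's adjusted p = 6.56e-08), which is 4.68-fold. An antisense gene, AL034417.4, shares 155 exon bases with ERRFI1 and had 3 to 18 counts per library, and whether the counting used strand is not given in the sources used here.

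NDRG1, a cytoplasmic protein linked to differentiation, hypoxia and metastasis suppression, varied between replicates. It lies on chromosome 8 from 133237171 to 133302022 on the minus strand (ENSG00000104419.14). P4 cultures had 7.67, 20.3 and 13.7 CPM, while the vehicle controls, at 1.49, 1.55 and 1.45 CPM, rested on 8 to 21 reads. Controls had 2.02, 5.81 and 2.10 CPM and Nap only cultures 1.66 and 3.12 CPM, so that replicate 2 was the highest of each labelled group, in vehicle controls by a narrow margin. All P4 cultures were above all others, and the rise over vehicle controls was 9.24-fold (log2 fold change 3.21, standard error 0.38, edgeR's adjusted p = 5.25e-05).

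SGK1, a kinase that regulates epithelial sodium channels and survival, differed among the P4 cultures. The gene (ENSG00000118515.11) is on chromosome 6 from 134169246 to 134318112, minus strand. P4 replicate 1 was at 2.65 CPM, below every vehicle control, whereas replicates 2 and 3 were at 4.48 and 4.93 CPM. Vehicle controls had 3.54, 3.39 and 3.22 CPM, controls 2.46, 2.75 and 2.32 CPM and Nap only cultures 2.30 and 2.85 CPM. The groups with P4 and with vehicle overlapped, and the log2 fold change of 0.27 (standard error 0.24) did not pass the test (edgeR's adjusted p = 0.355). Without P4 replicate 1 it was 0.49, with an adjusted p of 0.0492 in edgeR's test.

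The last pair of genes acts on steroid signalling itself. FKBP5 encodes FKBP51, a cochaperone of HSP90 that lowers hormone binding of GR and PR and forms a feedback loop, and HSD11B2 encodes the enzyme that turns cortisol into inactive cortisone. FKBP5 (ENSG00000096060.14, chromosome 6 from 35573585 to 35728583, minus strand) was at 44.2, 52.6 and 50.5 CPM in P4 cultures and at 41.0, 44.1 and 38.3 CPM in vehicle controls. The lowest P4 culture stood just above the highest vehicle control, at 44.2 against 44.1 CPM. The log2 fold change of 0.25 (standard error 0.09, 1.19-fold) passed with edgeR's adjusted p = 0.0348. It no longer passed in 6 of 13 alternatives, among them each fit without vehicle control replicate 1 or 3 or without P4 replicate 2 or 3 (edgeR's adjusted p = 0.0637, 0.181, 0.0744 and 0.104), DESeq2 (adjusted p = 0.0503) and upper-quartile scaling with edgeR (adjusted p = 0.140). HSD11B2 (ENSG00000176387.7, chromosome 16 from 67430652 to 67437553, plus strand) went the other way, with 1.99, 1.27 and 1.67 CPM in P4 cultures and 5.03, 4.28 and 4.91 CPM in vehicle controls. In controls it had 4.43, 3.59 and 3.90 CPM and in Nap only cultures 4.91 and 4.41 CPM, all above the P4 cultures, whose values rested on 15 to 22 reads. HSD11B2 fell by 1.52 on the log2 scale (standard error 0.23, edgeR's adjusted p = 1.34e-04), to a level 2.87-fold lower. Its exons overlap those of AC009061.1 on the other strand over 248 bases, a gene with 0 counts in every library.

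**Figure D2:**
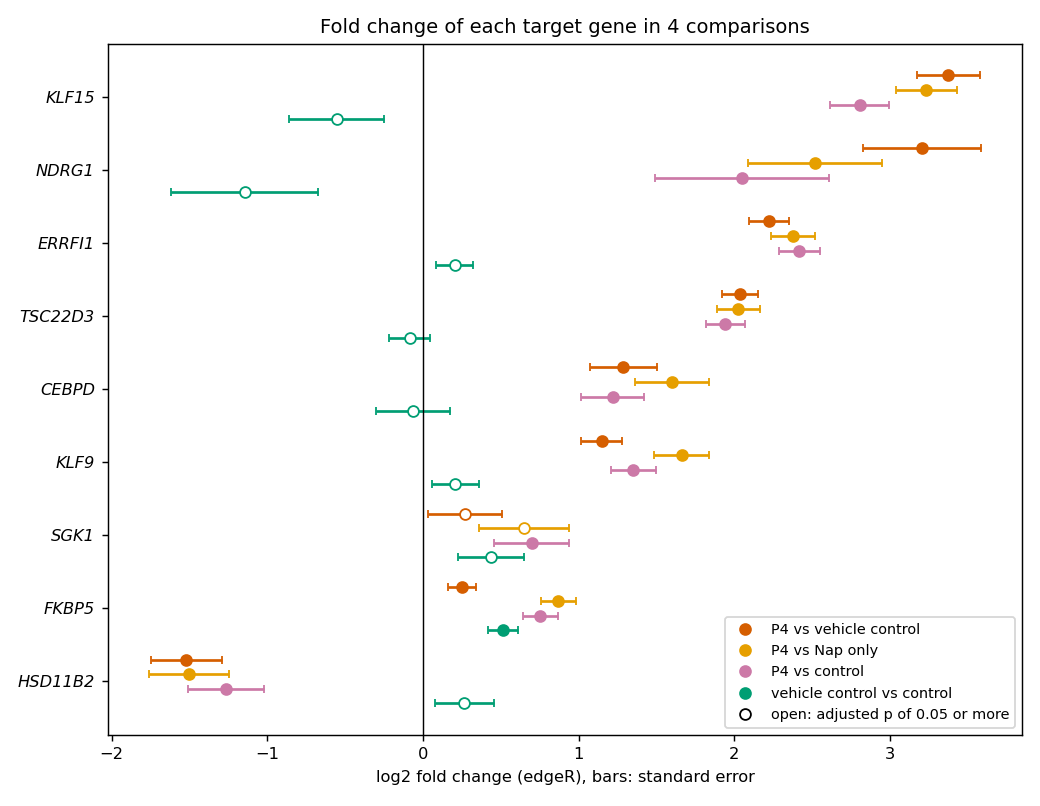
Log2 fold change of each tested target gene (horizontal axis) with its standard error from edgeR, for P4 against the 3 references and for vehicle control against control. Filled points were called at an adjusted p under 0.05. KLF15 reaches 3.38 against vehicle controls, HSD11B2 is at -1.52, and FKBP5 is the one gene with a filled point for vehicle control against control, at 0.52.

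Because the groups without P4 differ in what the medium held, the P4 cultures were also set against the other references. The 3 comparisons share the P4 cultures, so they are given side by side and not as repeats of each other. If P4 was given in ethanol, the comparisons with Nap only and control cannot tell P4 from ethanol. Against the 2 Nap only cultures, 7 of 9 tested target genes were higher and 1 lower, with 49.7% of 16987 genes called, 24.8% higher and 24.9% lower. Against the controls, 8 of 9 were higher and 1 lower, with 54.8% of 16620 genes called, 26.8% higher and 28.0% lower. The median log2 fold change of the 9 genes was 1.66 against Nap only and 1.35 against controls. HSD11B2 was the lower gene in both, by -1.50 (standard error 0.26) and -1.26 (0.24) on the log2 scale.

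For TSC22D3 and ERRFI1 the folds were close across references. For TSC22D3 the log2 fold change was 2.03 against Nap only and 1.94 against controls, and for ERRFI1 it was 2.38 and 2.42. KLF15 was at 3.23 and 2.81, KLF9 at 1.66 and 1.35 and CEBPD at 1.60 and 1.22, all with an edgeR adjusted p of 2.22e-04 or lower. NDRG1 rose by 2.52 against Nap only (standard error 0.43, edgeR's adjusted p = 0.00140) and by 2.05 against controls (0.56, adjusted p = 0.0270). Without control replicate 2, the highest control, the latter was 2.77, and without P4 replicate 2 or 3 or without a filter on low counts it did not pass (edgeR's adjusted p = 0.112, 0.0958 and 0.0926). SGK1 was called against controls only, at 0.70 on the log2 scale (standard error 0.24, edgeR's adjusted p = 0.0195), and 2.65 CPM in P4 replicate 1 lay within the controls' range. That call was lost without control replicate 1 or 3 or P4 replicate 3 (edgeR's adjusted p = 0.0605, 0.0718 and 0.131) and with DESeq2 (adjusted p = 0.0604). Against Nap only SGK1 was at 0.65 (edgeR's adjusted p = 0.0808), and it passed without P4 replicate 1 (adjusted p = 0.00412) and with all 4 groups in the fit (0.0283).

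For FKBP5 the fold differed widely between references. Its controls stood at 32.9, 25.7 and 29.6 CPM and its Nap only cultures at 27.6 and 26.3 CPM, all below the 38.3 CPM of the lowest vehicle control. The 3 vehicle controls were thus apart from the 5 control and Nap only cultures and close to the 3 P4 cultures. Ethanol is named in the labels of the vehicle controls and not in those of the P4, Nap only or control cultures. The log2 fold change of P4 was 0.87 against Nap only (standard error 0.11, edgeR's adjusted p = 7.68e-05) and 0.76 against controls (0.11, adjusted p = 1.96e-05), beside 0.25 against vehicle controls. Vehicle controls exceeded controls by 0.52 (standard error 0.10, edgeR's adjusted p = 7.77e-04) and Nap only cultures by 0.64 (0.09, adjusted p = 2.46e-05).

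Between the groups without P4, FKBP5 was the only target gene called for vehicle control against control, where 22.6% of 16673 genes were called, 11.9% higher and 10.7% lower. The other 8 had log2 fold changes from -1.15 for NDRG1 to 0.44 for SGK1. That of NDRG1 was -0.43 without control replicate 2, whereas without control replicate 1 or 3 it passed the test at -1.43 and -1.36 (edgeR's adjusted p = 0.0128 and 0.0470). With no filter on low counts NDRG1 passed as well, lower by -1.17 (edgeR's adjusted p = 5.66e-04). For vehicle control against Nap only, FKBP5 and KLF9 were higher, where 23.8% of 16935 genes were called, 12.7% higher and 11.2% lower. KLF9 differed by 0.53 (standard error 0.17, edgeR's adjusted p = 0.0280), and it did not pass without Nap only replicate 1 (adjusted p = 0.201), without vehicle control replicate 2 (0.165) or 3 (0.0675), with all 4 groups in the fit (0.0613) or with DESeq2 (adjusted p = 0.169). NDRG1 was lower by -0.67 in that comparison (edgeR's adjusted p = 0.124) and passed at -1.04 without Nap only replicate 1 (adjusted p = 0.0250). None of the 9 tested target genes differed between Nap only and control in edgeR's test, in which 0% of 17166 genes were called, although 217 genes had an unadjusted p under 0.05. In DESeq2 the comparison gave 1 call among all genes.

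Scaled by exon length, the order of the target genes changed with P4. In RPKM (CPM divided by the kilobases of exon, with the exons of all isoforms merged), vehicle controls had 5.47 ± 0.83 for ERRFI1, 3.87 ± 0.27 for FKBP5 and 2.55 ± 0.19 for TSC22D3 (SD, n = 3 each). HSD11B2 at 1.77 ± 0.15 and KLF9 at 1.64 ± 0.17 did not differ beyond their spread. CEBPD followed at 1.19 ± 0.38, with values that overlapped those of KLF9 and of KLF15 at 0.57 ± 0.21, then SGK1 at 0.34 ± 0.02 and NDRG1 at 0.15 ± 0.01. In P4 cultures ERRFI1 led with 26.1 ± 4.24, then TSC22D3 with 10.4 ± 1.17 and KLF15 with 5.45 ± 0.33. KLF15, below FKBP5 in every vehicle control, was thus above it in every P4 culture. FKBP5 at 4.62 ± 0.41, KLF9 at 3.71 ± 0.46 and CEBPD at 3.11 ± 0.49 came next, with overlap between FKBP5 and KLF9 and between KLF9 and CEBPD, ahead of NDRG1 at 1.41 ± 0.64, HSD11B2 at 0.61 ± 0.14 and SGK1 at 0.40 ± 0.12. HSD11B2 and SGK1 overlapped with P4, whereas in vehicle controls every value of HSD11B2 was above every value of SGK1.

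The genes of the steroid receptors themselves differed as well. PGR, the gene of PR, was at 27.2, 18.1 and 19.1 CPM in P4 cultures and at 48.6, 60.5 and 61.9 CPM in vehicle controls. Controls had 103, 116 and 117 CPM and Nap only cultures 102 and 146 CPM. PGR therefore stood at separate levels, with P4 lowest, vehicle control between and the other groups highest, and it fell by 1.44 on the log2 scale from vehicle control to P4 (standard error 0.14, edgeR's adjusted p = 4.96e-06). Vehicle controls were already below controls, at -0.93 on the log2 scale (standard error 0.08, edgeR's adjusted p = 6.77e-08). NR3C1, the gene of GR, moved the other way, with 98.0, 135 and 122 CPM in P4 cultures against 57.0 to 62.8 CPM in vehicle controls, and its log2 fold change was 0.97 (standard error 0.10, edgeR's adjusted p = 8.04e-06). Per exon length, NR3C1 at 12.9 ± 2.04 RPKM was above PGR at 1.39 ± 0.32 RPKM in P4 cultures. It was already above PGR in vehicle controls, at 6.55 ± 0.32 against 3.70 ± 0.47 RPKM. In controls NR3C1 and PGR were at 6.16 ± 0.68 and 7.30 ± 0.51 RPKM (SD, n = 3 each). NR3C2, the mineralocorticoid receptor, which P4 also binds, was at 50.7 ± 1.99 CPM in vehicle controls and at 65.6 ± 2.88 CPM with P4 (SD, n = 3 each), higher by 0.36 on the log2 scale (edgeR's adjusted p = 0.00110).

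**Figure D3:**
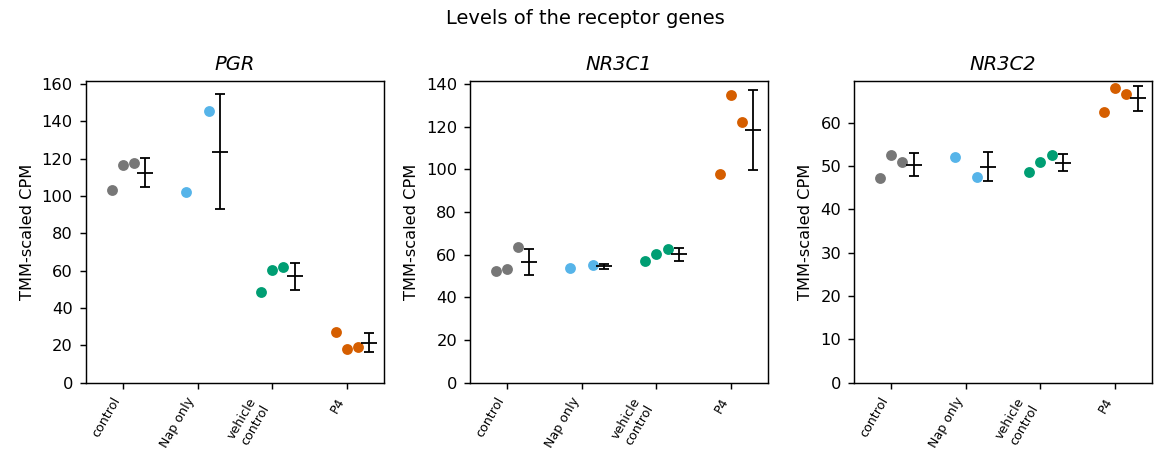
Levels of the genes of the progesterone (PGR), glucocorticoid (NR3C1) and mineralocorticoid (NR3C2) receptors in TMM-scaled CPM on the vertical axis, for each library of the 4 labelled groups, with the group mean and SD (n = 3, and n = 2 for Nap only). PGR falls from 103 CPM or more in controls to between 18.1 and 27.2 CPM with P4, while NR3C1 is at 98.0 CPM or more with P4.

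Of 17 genes for steroid receptors, their chaperones and coregulators, all 17 were tested between P4 and vehicle control, with 6 higher and 10 lower and a median log2 fold change of -0.38. Over all genes tested in that comparison, 26.6% were called higher and 26.5% lower. The HSP90 genes, whose proteins hold steroid receptors in the form that binds hormone, had the smallest adjusted p among those lower. HSP90AA1 fell from 988 to 359 CPM (log2 fold change -1.47, edgeR's adjusted p = 2.12e-08) and HSP90AB1 from 1281 to 733 CPM (log2 fold change -0.81, adjusted p = 3.73e-07). Besides NR3C1, the coactivators NCOA3 and NCOA1 were higher, with log2 fold changes of 0.86 and 0.62 (edgeR's adjusted p = 8.61e-06 and 1.38e-04). Among 8 genes of steroid metabolism 6 were tested, 4 of them higher and 0 lower, with a median of 0.49. AKR1C1 and AKR1C2, reductases of P4 and other steroids, had log2 fold changes of 1.68 and 0.79 (edgeR's adjusted p = 3.39e-06 and 8.26e-04), values that are uncertain because the AKR1C genes are near-identical and share reads. H6PD, which supplies NADPH to HSD11B1, was at 0.52 (edgeR's adjusted p = 0.0110). Without vehicle control replicate 2 only 2 genes of this list were called higher, and H6PD was not (edgeR's adjusted p = 0.0602, and 0.116 with all 4 groups in the fit).

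Other targets of the same receptors were mixed. Some genes are in several of the lists, such as CEBPB, FOXO1 and MAOA, so the counts of the lists overlap. Among 28 further GR targets, 25 were tested, with 11 higher, 3 lower and 11 not called, and a median log2 fold change of 0.28. These counts stand beside 26.6% of all genes called higher and 26.5% called lower between P4 and vehicle control. CEBPB, a sister factor of CEBPD, rose 3.93-fold from 14.5 to 56.5 CPM, DDIT4, an inhibitor of mTOR, rose 3.23-fold from 98.9 to 320 CPM, and TIPARP, an ADP-ribosyltransferase, rose 2.63-fold from 24.8 to 65.3 CPM (edgeR's adjusted p = 9.18e-08, 9.46e-08 and 4.68e-07). CRISPLD2, a secreted regulator of inflammation, and SCNN1A, a subunit of the epithelial sodium channel, were lower, with log2 fold changes of -1.15 and -0.68 (edgeR's adjusted p = 9.82e-06 and 9.76e-06). PIK3R1, a regulatory subunit of PI3 kinase, was at -0.30 (edgeR's adjusted p = 0.0107) and did not pass without vehicle control replicate 2 or P4 replicate 3 (adjusted p = 0.0838 and 0.0604). With upper-quartile scaling 5 genes of this list were lower, a scaling under which 5244 of all 16540 genes were called lower, beside 4377 in the main fit.

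Among 21 further progestin targets, 16 were tested, with 5 higher, 2 lower and 9 not called, and a median log2 fold change of 0.19. Beside these counts stand the 26.6% of all genes called higher and the 26.5% called lower. EGFR, the receptor that the ERRFI1 product inhibits, rose 3.09-fold from 78.1 to 244 CPM (edgeR's adjusted p = 8.50e-07). AREG, an EGFR ligand that PR induces in the uterine epithelium, rose from 0.76 to 4.29 CPM and MYC from 68.7 to 105 CPM (edgeR's adjusted p = 1.07e-05 and 3.18e-05). The cyclin gene CCND1 fell from 261 to 118 CPM and ELF3, an epithelial ETS factor, from 28.1 to 7.98 CPM (edgeR's adjusted p = 1.48e-06 and 5.69e-07). Without P4 replicate 1, and also with upper-quartile scaling, 4 genes of this list were lower. Upper-quartile scaling called 5244 of all 16540 genes lower, beside 4377 in the main fit.

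Close relatives of the target genes did not move as a block. Of 17 relatives 16 were tested, with 9 higher, 3 lower and 4 not called, and a median log2 fold change of 0.35. Over all genes, 26.6% were called higher and 26.5% lower. The C/EBP genes CEBPG and CEBPB rose beside CEBPD, by 2.13 and 1.98 on the log2 scale, and KLF4 rose beside KLF9 and KLF15 by 2.77, from 2.15 to 14.6 CPM (edgeR's adjusted p = 1.66e-09, 9.18e-08 and 3.43e-06). In the NDRG family the relatives went opposite to NDRG1. NDRG4 was at -0.86, NDRG3 at -0.35 and NDRG2 at -0.51 on the log2 scale (edgeR's adjusted p = 9.43e-05, 0.0136 and 0.0272). The calls of NDRG2 and NDRG3 were both lost without vehicle control replicate 1 (edgeR's adjusted p = 0.0603 and 0.0539), which left 1 relative called lower. NDRG2 was also not called without vehicle control replicate 2 or 3 or P4 replicate 3 (edgeR's adjusted p = 0.0549, 0.111 and 0.141) or with DESeq2 (adjusted p = 0.0977).

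**Figure D4:**
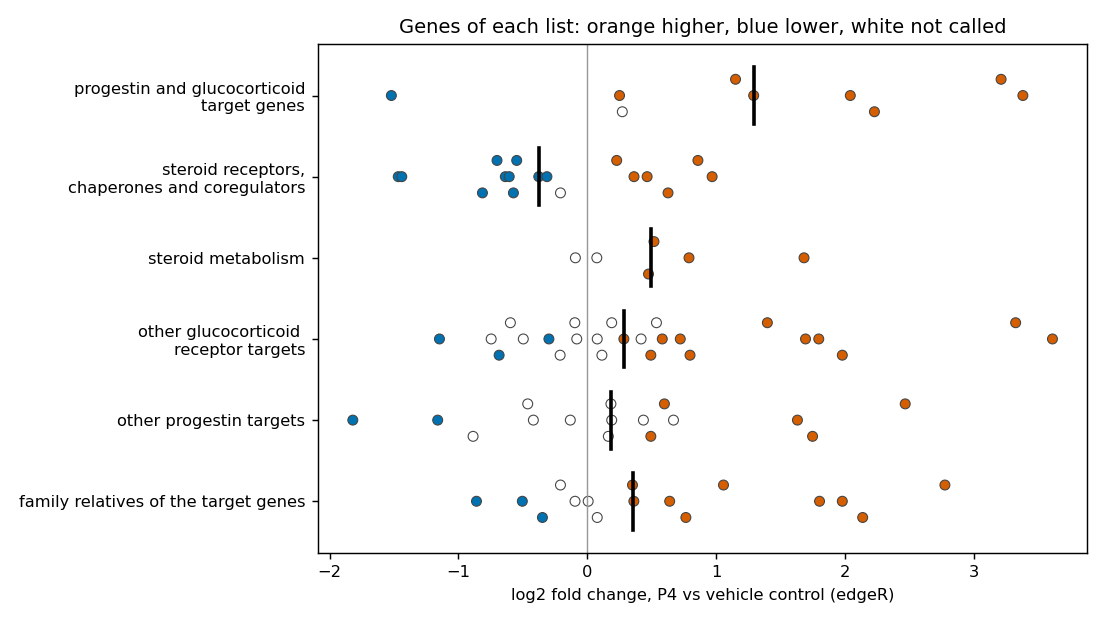
Log2 fold change of P4 against vehicle control from edgeR (horizontal axis) for each tested gene of the target genes and of the other lists of receptors, steroid metabolism, targets and relatives (rows). Orange points were called higher, blue lower and white not called, and the black bar is the median of the list. Lists of cell type markers are not plotted. A gene that is in several lists, such as CEBPB, is plotted in each. The 9 tested target genes have a median of 1.29, and the other lists plotted have medians from -0.38 to 0.49.

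Genes used as markers of cell types moved with some of the comparisons. Between P4 and vehicle control, 26.6% of all genes were called higher and 26.5% lower. Of 7 stromal markers 5 were tested, and 4 were lower in P4 cultures than in vehicle controls (median log2 fold change of the list -1.38), with summed levels of 66.4 to 77.6 CPM in P4 cultures, 71.7 to 95.9 CPM in vehicle controls, 92.1 to 150 CPM in Nap only cultures and 96.1 to 163 CPM in controls. DCN, a defining stromal marker, had 3 counts or fewer in every library, and when every sample had to hold 10 counts, 1 stromal marker was left called lower. Of the 7 epithelial markers 5 were lower and 1 higher, the latter not with upper-quartile scaling nor without vehicle control replicate 1 or 2 or P4 replicate 3, with sums of 1179 to 1309 CPM in P4 cultures and 1546 to 1616 CPM in vehicle controls. None of the 5 leukocyte markers had enough counts to be tested in a comparison with P4. They summed to 0.379 to 0.422 CPM in P4 cultures and 1.49 to 1.85 CPM in vehicle controls, against 0.633 to 1.09 CPM in Nap only cultures and 0.422 to 1.12 CPM in controls. The 4 endothelial markers summed to 0.455 to 0.663 CPM in P4 cultures, 0.664 to 1.30 CPM in vehicle controls, 1.504 to 1.76 CPM in Nap only cultures and 1.27 to 1.72 CPM in controls. One of them, VWF, named after its values were seen, could be tested against Nap only and control, and it was lower with P4 in both (log2 fold change -2.45 and -2.26, edgeR's adjusted p = 8.35e-04 and 1.91e-04), on 2 to 4 reads in each P4 culture. The part of these marker genes in the changes of the target genes was not tested. All cultures are of 1 epithelial line, so these levels are not read as numbers of cells of a type.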

How the data were processed

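RNA from Ishikawa cultures was sequenced as stranded total RNA libraries with single-end 75 bp reads. After trimming (cutadapt) and a quality filter, the authors mapped reads with Subread, kept unique alignments and deposited the raw read counts that featureCounts gave per gene of GENCODE 31, not normalized. Tool versions and the strand setting of the counting are not given in the sources used here. Reads shared by near-identical genes are missing from such counts, and library totals (4999521 to 19704493) limit the precision of low genes. All 17 columns were matched to samples by their labels, and 0 columns were left unused. Gene names, positions and exon lengths are from GENCODE 29 (GRCh38), which names 58577 of the 60662 genes, and a list of gene symbols gave 2054 more.

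Counts were analysed in R 4.3.3 with edgeR 4.0.16 (TMM, filterByExpr with a minimum count of 10, robust quasi-likelihood test, Benjamini-Hochberg adjustment over all genes tested), each fit holding the 2 groups compared. A gene was called at an adjusted p under 0.05. Levels are CPM scaled by TMM over all 17 libraries. The method was tested on simulated data. Alternatives were DESeq2 1.42.0, other scalings and filters, a fit of all 4 groups, a block for the replicate number and leaving out each replicate. Python 3.11.15 with pandas 2.3.3, numpy 2.4.6 and matplotlib 3.10.9 was used for tables and figures, with seed 1. The target genes and all gene lists were chosen with earlier results of these data known. Named were the 10 target genes, PGR, NR3C1 and NR3C2, and in each list other than markers the 3 genes called higher and the 3 called lower at the smallest adjusted p between P4 and vehicle control. Other list members are given only by count, and an item that the rule names is not reported here. A planned count of receptor elements over gene bodies was not made, for lack of a genome sequence here.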

Additional observations from a re-analysis of the deposited data

Results flagged for a closer look

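The 6 libraries with contradictory labels entered no comparison. In 3 of them, titled PSAT1 and headed PSAT1_P4 in the table, the levels of 7 target genes lay above the highest of all 8 control, Nap only and vehicle control libraries, which is what drew attention to them. The share of all genes with this pattern was not counted, so the 7 genes are a description and not a trait of the set. The lowest of these 3 libraries was at 48.4 CPM for TSC22D3 (highest of the 8 libraries, 14.9 CPM), at 104 CPM for ERRFI1 (26.9 CPM), at 13.6 CPM for KLF15 (2.90 CPM) and at 18.5 CPM for KLF9 (9.44 CPM). It was at 10.9 CPM for NDRG1 (highest of the 8 libraries, 5.81 CPM), at 6.31 CPM for CEBPD (3.30 CPM) and at 46.4 CPM for FKBP5 (44.1 CPM). In the other 3, titled PSAT1_P4 and headed PSAT1, HSD11B2 was the one target gene above that limit, with a lowest level of 5.17 CPM against 5.03 CPM. Which label is right was not tested, and no group mean or test was made from these libraries.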

How the results depend on the processing

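The counts of target genes called in the 3 comparisons with P4 stayed within 1.5 times of the reported ones under every alternative run. Between P4 and vehicle control, 6 were called higher with DESeq2 or upper-quartile scaling and 5 with at least 10 counts in every sample, under which NDRG1 and CEBPD were no longer tested, and leaving out replicates gave 6 to 8. In the whole table DESeq2 called 3925 of 18878 genes higher and upper-quartile scaling 3603 of 16540, beside 4397 of 16540 in the main fit. For vehicle control against control, 1 target gene, NDRG1, was called lower with no filter and with the replicate block (log2 fold change -1.17 in both, adjusted p = 5.66e-04 and 0.00136), and 0 to 1 with replicates left out. For vehicle control against Nap only, 1 was called higher with DESeq2 and with all 4 groups in the fit, where leaving out replicates gave 1 to 2 higher and 0 to 1 lower. With replicates left out, the log2 fold change of vehicle control against control, not called, ran from -0.26 to 0.071 for CEBPD and from -0.18 to 0.024 for TSC22D3. For Nap only against control and vehicle control against Nap only, 21 of 177 values of target genes that were not called changed sign across the alternatives. FKBP5, KLF9 and NDRG1 in the latter comparison are not among the 177. Upper-quartile scaling moved the median of all genes between P4 and vehicle control from -0.01 to -0.10. Over all genes, DESeq2 called 1229 higher, against 1976, for vehicle control and control, and 1066 higher and 1064 lower, against 2145 and 1889, for vehicle control and Nap only, where all 4 groups in the fit gave 1171 and 741. With a replicate left out these counts fell to as few as 1097 higher and 811 lower, against 1976 and 1787, for vehicle control and control, to 1340 and 1015 for vehicle control and Nap only, and to 2601 lower, against 4232, for P4 and Nap only. Nap only and control differed in at most 3 genes higher and 2 lower in any fit without the block. Same-numbered cultures of P4 and vehicle control did not deviate together (correlations of -0.045 to 0.046 over 15656 genes), so the replicate numbers were not taken as pairs. The replicate block left the counts between P4 and vehicle control at 7 higher and 1 lower. In Nap only against control, whose 2 same-numbered pairs correlated at 0.28 and 0.34, the block, which drops replicate 3, called 5 genes higher and 43 lower in place of 0, none of them a target gene. For other changed calls the cause was not tested. Genes with fewer than about 20 reads in a library, NDRG1, CEBPD, KLF15, SGK1 and HSD11B2 among them, are limited by depth.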

Other observations

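The libraries titled PSAT1 and headed PSAT1_P4 had 18.0, 18.9 and 20.9 CPM of PGR, in order of level, and 120, 126 and 141 CPM of NR3C1. Those titled PSAT1_P4 and headed PSAT1 had 98.3, 108 and 128 CPM of PGR and 48.9, 49.1 and 50.2 CPM of NR3C1. SGK1 was at 1.96, 4.24 and 4.89 CPM in the libraries headed PSAT1_P4 and at 1.91, 1.99 and 2.55 CPM in those headed PSAT1. HSD11B2 was at 1.55, 1.86 and 2.17 CPM in the former and at 5.17, 5.26 and 5.77 CPM in the latter.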
